A study of Mus musculus with 3 samples.

Results

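The 10 genes described here were *Pi16*, *Dpp4*, *Cd55*, *Anxa3*, *Sema3c*, *Smpd3*, *Limch1*, *Akr1c18*, *Sbsn* and *Krtdap*, a set that marks the interstitial progenitor state of adipose tissue. They were chosen by symbol among the 32285 genes of the count files, and all 10 were found. The set had been selected on results of these same libraries, so that its co-expression and its differences between genotypes are given as a description and without a test. Values were taken from barcodes of at least 2000 UMIs (unique molecular identifiers, which count RNA molecules) with at most 10% mitochondrial UMIs. Of 31905 such cells, 23175 held at least 1 UMI of *Pdgfra*, the receptor that marks stromal progenitors, and are called *Pdgfra* cells.

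Interstitial progenitors lie in the connective tissue that surrounds adipose lobules and vessels. They are known as an early progenitor state that gives rise to committed preadipocytes, and related fibroblasts are found in many tissues. Their marker set joins genes of unlike function. *Pi16* encodes a cell surface protein of the CRISP family and *Cd55* a lipid-anchored surface protein that restrains complement. *Dpp4* encodes a surface peptidase, *Sema3c* a secreted guidance factor, *Anxa3* a phospholipid-binding annexin, *Smpd3* a sphingomyelinase, *Akr1c18* a dehydrogenase that inactivates progesterone, and *Limch1* a protein of the actomyosin skeleton. *Sbsn* and *Krtdap* are best known as secreted products of the differentiating epidermis.

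The study asked how loss of matrix Gla protein (*Mgp*) alters progenitors of inguinal fat. Stromal vascular cells of 4-week-old mice, pooled over mice of both sexes and sorted to remove CD45-positive immune cells, were sequenced in 1 library per genotype. The genotypes were wild-type, *Mgp*-KO (global deletion) and *Pd*-KO (floxed *Mgp* deleted by a *Pdgfra*-Cre transgene, which acts in cells with that promoter active), and the wild-type library was the only control for both. There were no replicates, so no p-value was computed; intervals are 95% intervals that cover counting error only.

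The wild-type library held 184102026 UMIs, the *Mgp*-KO library 93212243 and the *Pd*-KO library 83942865, and values of the 3 libraries are given in this order below. The *Pdgfra* cells numbered 7702, 9099 and 6374, with medians of 14425, 6897 and 9409 UMIs. The level of a gene is given as CPM (its UMIs per 1000000 UMIs of the cells), and *Mgp* lay at 474, 0.699 and 1.92 CPM in them. The stromal genes *Dcn*, *Lum*, *Col1a1* and *Col3a1* each had a UMI in 95.6% to 100.0% of them, and 3 or more of 6 markers of another cell type were found in 1030, 197 and 278 of them. Doublets were not called and these cells were kept. Pairs of libraries shared 35 to 40 barcodes. By its header the wild-type matrix was written by Cell Ranger 4 and both knockout matrices by 7.1.0, and the default of the later version counts reads of introns, so that genotype and processing cannot be told apart in a comparison with wild-type. The *Pd*-KO and *Mgp*-KO libraries shared a version.

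Of the members, 8 had a promoter in the RefSeq table (GRCm38.p6); *Anxa3* and *Smpd3* had none. The promoters of *Sbsn* and *Krtdap* are shown because both genes lie on the plus strand of chromosome 7 within 39.6 kb of each other, at chr7:30751471-30756134 and chr7:30787896-30791097 (GENCODE M21, GRCm38). A further ground was that *Krtdap* correlated most with *Sbsn* among the members in each library (below). Each sequence runs 5′ to 3′ from 250 bases before to 50 after the start of transcription, at chr7:30751221-30751520 and chr7:30787655-30787954. Capitals mark matches on either strand to TGANTCA (the AP-1 motif), TATAAA (the TATA box), CCAAT or GGGCGG (the GC box); no matches overlapped.
Sbsn: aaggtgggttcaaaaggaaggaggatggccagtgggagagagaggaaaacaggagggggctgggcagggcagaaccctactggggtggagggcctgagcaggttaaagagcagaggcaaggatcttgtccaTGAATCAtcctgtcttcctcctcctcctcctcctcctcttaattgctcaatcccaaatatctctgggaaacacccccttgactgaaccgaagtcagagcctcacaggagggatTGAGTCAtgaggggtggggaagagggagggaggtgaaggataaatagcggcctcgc
Krtdap: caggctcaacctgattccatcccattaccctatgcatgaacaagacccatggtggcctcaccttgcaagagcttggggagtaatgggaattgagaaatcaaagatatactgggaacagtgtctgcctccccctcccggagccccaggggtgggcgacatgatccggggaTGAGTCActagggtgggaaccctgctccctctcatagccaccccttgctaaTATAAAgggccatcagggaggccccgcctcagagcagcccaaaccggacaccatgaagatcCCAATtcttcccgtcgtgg
TGANTCA was found in both, at positions -119 and -6 of *Sbsn* and -81 of *Krtdap*, counted from the start. It was found in 7.81% of the 32851 promoters of the table, and in none of the other 6 members. TATAAA was found at -30 and CCAAT at 31 of *Krtdap*. They were found in 13.6% and 37.4% of all promoters, and GGGCGG, which neither gene had, in 35.7%. A match is a description of the letters and not of binding.

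In *Pdgfra* cells, the surface genes *Pi16*, *Dpp4* and *Cd55* and the guidance factor *Sema3c* were lowest in the wild-type library and highest in the *Pd*-KO library. *Pi16* was at 648 CPM in wild-type cells (644 to 653), 958 in *Mgp*-KO cells (951 to 965) and 1535 in *Pd*-KO cells (1526 to 1545). *Pdgfra* cells held 89.3%, 74.1% and 84.4% of the *Pi16* UMIs of all kept cells, beside 81.4%, 76.7% and 81.6% of all UMIs. Ratios over all kept cells, without the *Pdgfra* gate, are not given here. *Dpp4* was at 104 (102 to 106), 263 (259 to 267) and 482 CPM (477 to 488). *Cd55* was at 150 (148 to 153), 201 (198 to 204) and 274 CPM (270 to 278). These 3 cell-surface genes thus had the same order of libraries, which *Sema3c*, *Anxa3*, *Akr1c18*, *Limch1* and *Sbsn* shared (below). *Sema3c* was at 183 (180 to 185), 294 (290 to 298) and 889 CPM (882 to 897), so that its *Pd*-KO level stood apart from the other two. Between *Pd*-KO and wild-type cells, the log2 ratio was 2.28 for *Sema3c* (2.26 to 2.31), 2.21 for *Dpp4* (2.18 to 2.24), 1.24 for *Pi16* (1.23 to 1.26) and 0.86 for *Cd55* (0.83 to 0.89).

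Among the intracellular and enzyme genes, *Anxa3* was at 328 (325 to 331), 571 (565 to 576) and 834 CPM (827 to 841). *Akr1c18* was at 135 (133 to 137), 318 (314 to 323) and 422 CPM (416 to 427). Without a correction for gene span, *Limch1* had the largest ratio of the members between *Pd*-KO and wild-type cells, at 21.9 (21.05 to 22.7), 48.3 (46.6 to 49.9) and 138 CPM (135 to 141), a log2 ratio of 2.66 (2.60 to 2.72). *Smpd3* did not follow this order. It was at 208 (205 to 211), 266 (262 to 270) and 241 CPM (237 to 245), and was the single member that was lower in *Pd*-KO than in *Mgp*-KO cells, with a log2 ratio of -0.14 (-0.18 to -0.11).

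The epidermal pair separated the knockouts. *Sbsn* was at 85.4 (83.7 to 87.1), 104 (101 to 106) and 218 CPM (214 to 222). *Krtdap* was at 29.1 (28.2 to 30.1), 22.8 (21.7 to 23.9) and 62.7 CPM (60.7 to 64.7). Without a correction for gene span, it was the single member below its wild-type level in *Mgp*-KO cells. Within each sex these 2 libraries were closer, at 18.4 and 17.4 CPM in female and 35.3 and 32.4 CPM in male cells (wild-type, *Mgp*-KO). The log2 ratio of *Pd*-KO over *Mgp*-KO cells was 1.46 for *Krtdap* (1.37 to 1.54) and 1.07 for *Sbsn* (1.03 to 1.11). Both were above the ratios of *Pi16* (0.68), *Anxa3* (0.55) and *Akr1c18* (0.41) in the same comparison, and near those of *Limch1* (1.52) and *Sema3c* (1.60). The ratio of *Krtdap* moved with sex, at 1.99 in female and 0.73 in male cells, and in male cells it was below those of *Dpp4* (0.84), *Limch1* (1.19) and *Sema3c* (1.36). Between *Pd*-KO and wild-type cells, *Krtdap* was at 1.91 in female and 0.61 in male cells, against 1.10 in all. Of *Pdgfra* cells, 34.6% were female in the wild-type, 60.6% in the *Mgp*-KO and 32.6% in the *Pd*-KO library. *Pdgfra* cells held 86.6%, 68.2% and 80.7% of the *Krtdap* UMIs of all kept cells, beside 81.4%, 76.7% and 81.6% of all UMIs. Markers of suprabasal keratinocytes summed to 32.9, 42.5 and 45.3 CPM in *Pdgfra* cells, and their part in the epidermal pair was not tested.

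**Figure D1:**
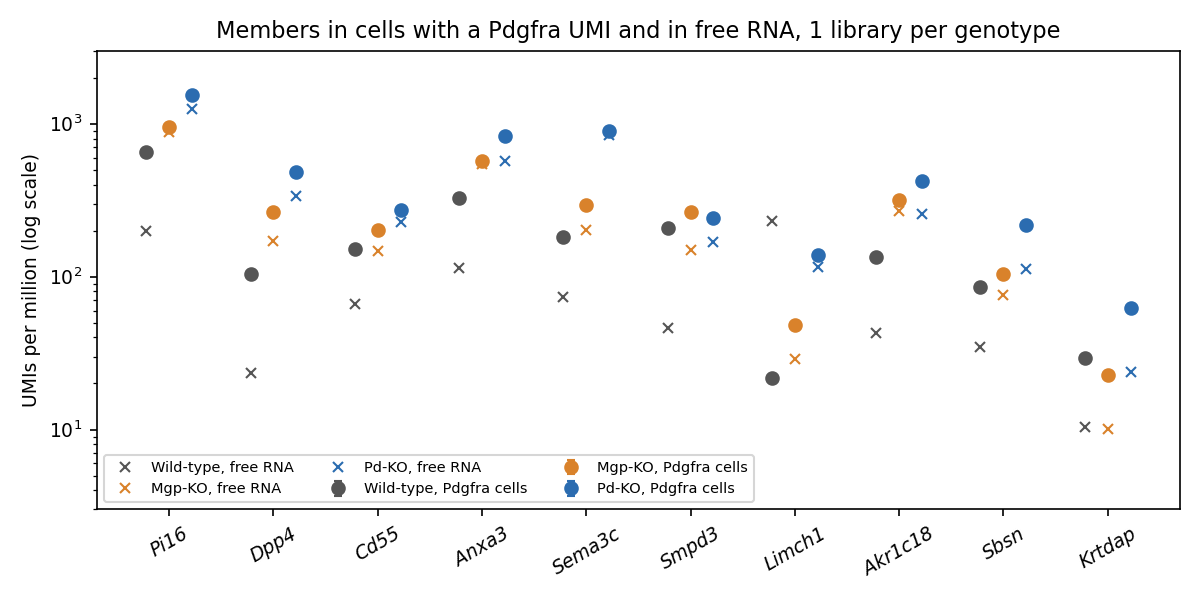
CPM (log scale) of the 10 members in *Pdgfra* cells (filled circles, with 95% counting intervals mostly smaller than the symbol) and in free RNA (crosses) in the library of each genotype (wild-type gray, *Mgp*-KO orange, *Pd*-KO blue). The *Pd*-KO circle is the highest for all members but *Smpd3*, and the wild-type cross of *Limch1* (231 CPM) lies far above its circle (21.9 CPM).

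Over 15199 genes with at least 100 UMIs, 9 of the 10 members were more than 1.5-fold above wild-type in *Pd*-KO cells, beside 33.3% of all genes, and 0 were lower, beside 14.8%. Between *Mgp*-KO and wild-type cells, 5 members were more than 1.5-fold higher, beside 28.7% of all genes, and 0 were lower, beside 9.92%. Between *Pd*-KO and *Mgp*-KO cells, 6 were higher, beside 11.4%, and 0 were lower, beside 10.7%. The median log2 ratios of the members were 1.35, 0.62 and 0.78 in these 3 comparisons, against medians of 0.18, 0.13 and 0.04 over all genes. Since the set had been chosen with such ratios known, nothing is read from these counts. With median-ratio size factors in place of total UMIs, the shares of all genes above and below wild-type were 27.9% and 21.2% in *Pd*-KO cells, and 24.7% and 13.8% in *Mgp*-KO cells, with counts of 9 and 4 members higher.

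Gene span moved with the comparisons with wild-type. When the median ratio of the 200 genes nearest in genomic span was taken off, *Sema3c* (156 kb), *Limch1* (311 kb) and *Smpd3* (85.4 kb) turned from above to below wild-type in *Mgp*-KO cells, at log2 -0.41, -0.82 and -0.25. Their log2 ratios in *Pd*-KO cells became 1.05, 0.47 and -0.56, against 2.28, 2.66 and 0.21 before. The ratios of *Pi16* (12.9 kb) and *Akr1c18* (18.0 kb) were 1.33 and 1.63 in *Pd*-KO cells. Between the knockouts, *Sema3c*, *Limch1*, *Krtdap* and *Sbsn* remained at 1.38, 1.29, 1.53 and 1.16.

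Free RNA, taken from barcodes of 10 to 100 UMIs, also held the members. Of the members, 9 in the wild-type library and 10 in each knockout library were lower in free RNA than in *Pdgfra* cells. The share of all genes is not given beside these counts, so nothing is read from them. The free RNA level was a median of 35.2%, 70.7% and 69.6% of the *Pdgfra* cell level over the 10 members. *Limch1* was the exception in the wild-type library, where free RNA held 231 CPM. The wild-type library also had 24365 barcodes of at least 500 but under 2000 UMIs, against 647 and 550, in which the members were at a median of 86.0%, 48.6% and 35.8% of their *Pdgfra* cell level. The part of free RNA in the ratios was not tested.

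The members were detected together. To set libraries of unlike depth side by side, each cell was thinned to 2000 UMIs drawn at random, and Pearson r was computed on log values. All 45 pairs had a positive r in each of the 3 libraries, with medians of 0.30, 0.26 and 0.31. These are values across cells of 1 library, which share their source, and are given without a p. The set had been chosen on these libraries, and pairs of other genes are not given beside it, so nothing is read from this count. *Pi16* and *Anxa3* formed the strongest pair, with r of 0.62, 0.59 and 0.65, and an *Anxa3* UMI was found in 62.5%, 75.3% and 83.3% of cells with *Pi16* but in 13.5%, 21.5% and 21.2% of cells without it. Against the sum of the other 9 members, r was highest for *Pi16* (0.68, 0.70 and 0.73) and *Anxa3* (0.64, 0.65 and 0.73), and lowest for *Krtdap* (0.26, 0.20 and 0.25) and *Limch1* (0.19, 0.26 and 0.34), which also had the fewest UMIs.

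Some pairs differed from library to library. *Smpd3* stood out in *Pd*-KO cells, where its r with the other 9 was 0.41, against 0.56 in wild-type and 0.50 in *Mgp*-KO cells. Its r with *Akr1c18* was 0.31, 0.30 and 0.13, and the odds ratio of finding both was 6.78, 4.02 and 2.15. *Dpp4* and *Krtdap* were the weakest pair of the *Mgp*-KO library (r of 0.15, 0.07 and 0.10), *Limch1* and *Krtdap* that of the wild-type library (0.12, 0.12 and 0.17), and *Smpd3* and *Krtdap* that of the *Pd*-KO library (0.08). *Sema3c* and *Anxa3* had r of 0.49, 0.43 and 0.58.

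**Figure D2:**
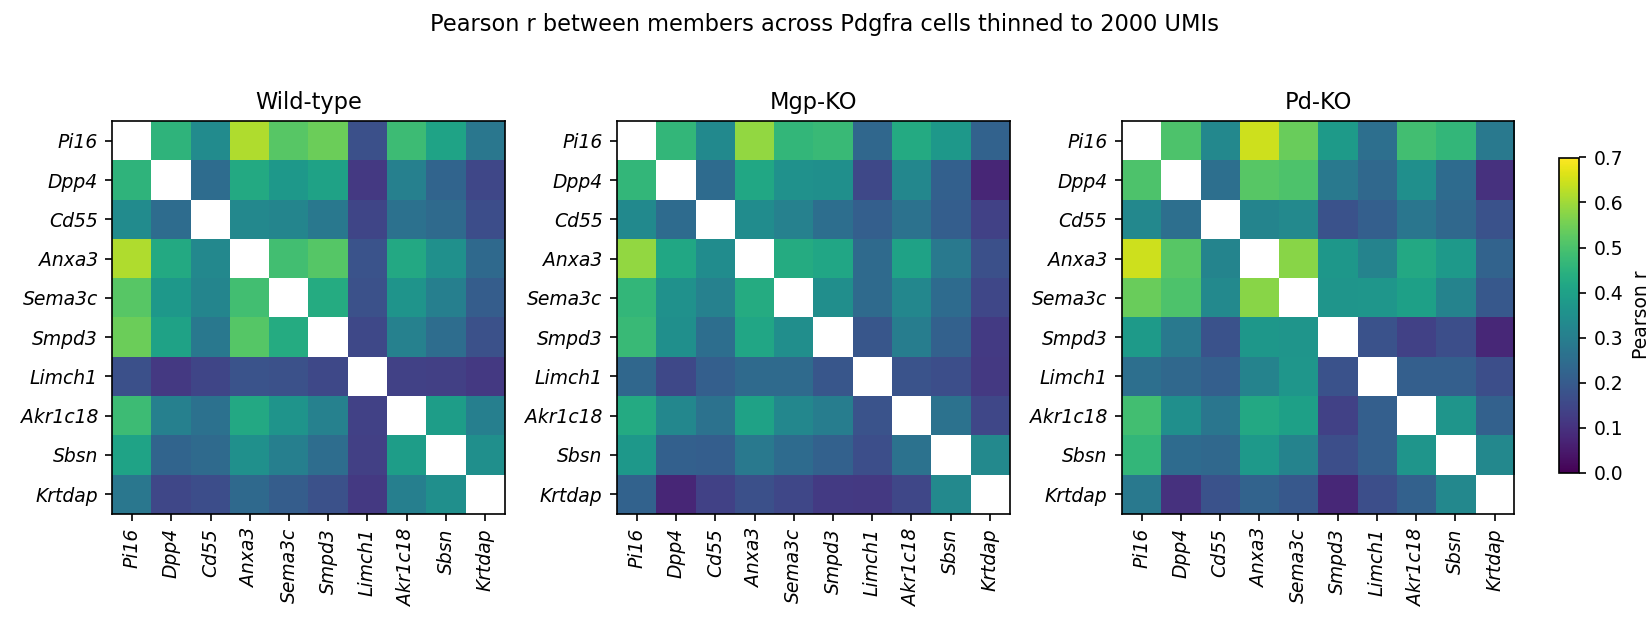
Pearson r between the log values of each pair of members across *Pdgfra* cells thinned to 2000 UMIs, with 1 panel per library and color from 0 to 0.7. All pairs are positive, *Pi16* with *Anxa3* is the brightest in each panel, and the *Limch1* row is dark in the wild-type panel. The *Krtdap* row is brightest where it meets *Sbsn* in each panel (0.35, 0.33 and 0.33), with *Akr1c18* close to it in the wild-type panel (0.30).

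The number of members per thinned cell differed between libraries. Cells without a UMI of any member made up 41.0%, 31.2% and 22.3%. In *Pd*-KO cells the numbers had a low point at 2 members (5.41% of cells) and a second peak at 6 members (14.3%). In *Mgp*-KO cells the second peak lay at 4 members (10.6%), and in wild-type cells the low point lay at 3 members (5.96%) and the second peak, a small one, at 5 (6.30%). At least 3 members were found in 28.2% (27.2 to 29.2), 45.7% (44.7 to 46.7) and 60.8% of cells (59.6 to 62.0), and at least 5 in 16.1%, 25.7% and 45.2%. These shares were not corrected for gene span, which moved ratios of several members against wild-type (above). The part of gene span and processing in the shares was not tested. Without thinning, the shares with at least 3 were 59.6%, 59.3% and 70.3%, so that the order of the wild-type and *Mgp*-KO libraries rested on equal depth. Cells with 0 members had 14581, 6472 and 7832 UMIs at the median before thinning, and cells with 6 members had 14565, 7416 and 10060.0.

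**Figure D3:**
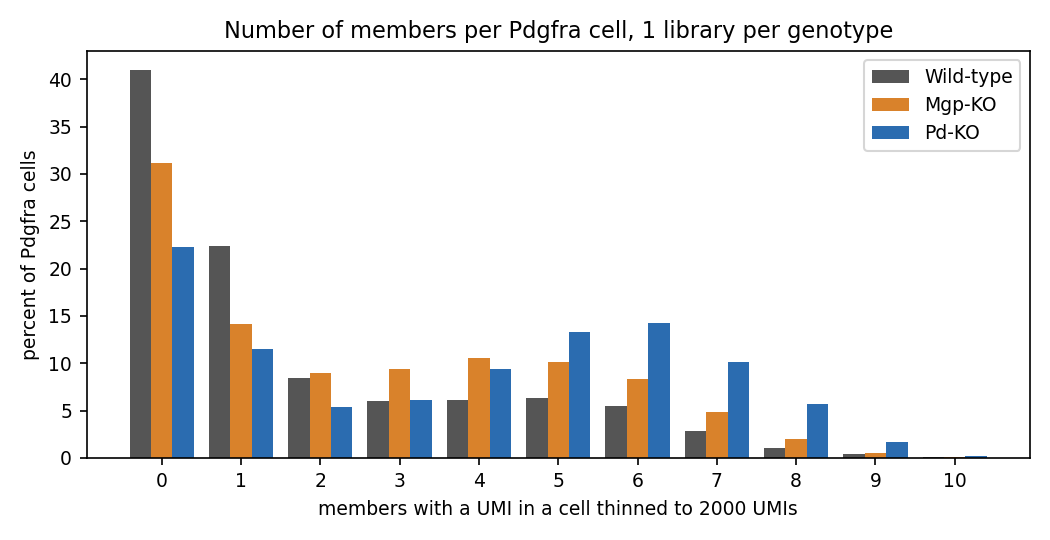
Percent of *Pdgfra* cells (vertical axis) by the number of the 10 members with a UMI after thinning to 2000 UMIs (horizontal axis), as bars for 1 library per genotype. The bar at 0 members falls from 41.0% in wild-type to 22.3% in *Pd*-KO cells, and the *Pd*-KO bars rise again to 14.3% at 6 members.

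To give the share of progenitor-like cells and the level per cell side by side, the level of each member was taken in cells with at least 3 of the other 9 members and in those with fewer. In wild-type cells, *Pi16* was at 2125 CPM in the former and 192 in the latter, a ratio of 11.04. The ratio was lowest for *Cd55* (5.00, 4.81 and 4.72) and highest for *Krtdap* (33.8, 29.4 and 82.4). The level of *Krtdap* in cells with fewer rested on 245, 57 and 24 UMIs, and was 1.14 CPM (0.73 to 1.70) in *Pd*-KO cells. *Akr1c18* had a ratio of 20.4 in wild-type, 7.39 in *Mgp*-KO and 15.4 in *Pd*-KO cells, and its level in cells with fewer was 21.7, 82.7 and 40.7 CPM. *Dpp4* in cells with fewer was at 26.7, 94.8 and 109 CPM.

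Within the gate of at least 3 other members, the genes parted. *Pi16*, *Cd55* and *Anxa3* lay close together in the 3 libraries, at 2125, 1914 and 2305 CPM for *Pi16*, 370, 356 and 379 for *Cd55*, and 994, 1088 and 1236 for *Anxa3*. Their log2 ratios between *Pd*-KO and wild-type cells were 0.12, 0.03 and 0.31 inside the gate, against 1.24, 0.86 and 1.35 over all *Pdgfra* cells. In cells with fewer than 3 other members, these ratios were 0.50, 0.12 and 0.61. *Limch1*, *Sema3c* and *Dpp4* were still more than 1.5-fold above wild-type in *Pd*-KO cells of the gate, at log2 1.76, 1.25 and 1.14. These are long genes (311, 156 and 82.2 kb), whose ratios over all *Pdgfra* cells were 0.47, 1.05 and 1.44 after the correction for span, and the ratios in the gate were not corrected. *Smpd3* was lower there, at 654 CPM in wild-type, 526 in *Mgp*-KO and 350.1 in *Pd*-KO cells, log2 -0.90 between *Pd*-KO and wild-type cells. *Krtdap* within the gate was at 97.2, 46.4 and 93.99 CPM, so that its *Mgp*-KO level was the lowest by a log2 ratio of -1.07 against wild-type. The median over the 10 members in the gate was log2 0.30 for *Pd*-KO over wild-type, -0.01 for *Mgp*-KO over wild-type and 0.40 for *Pd*-KO over *Mgp*-KO cells. The gate rests on the members themselves, and a library with higher levels admits more cells to it.

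**Figure D4:**
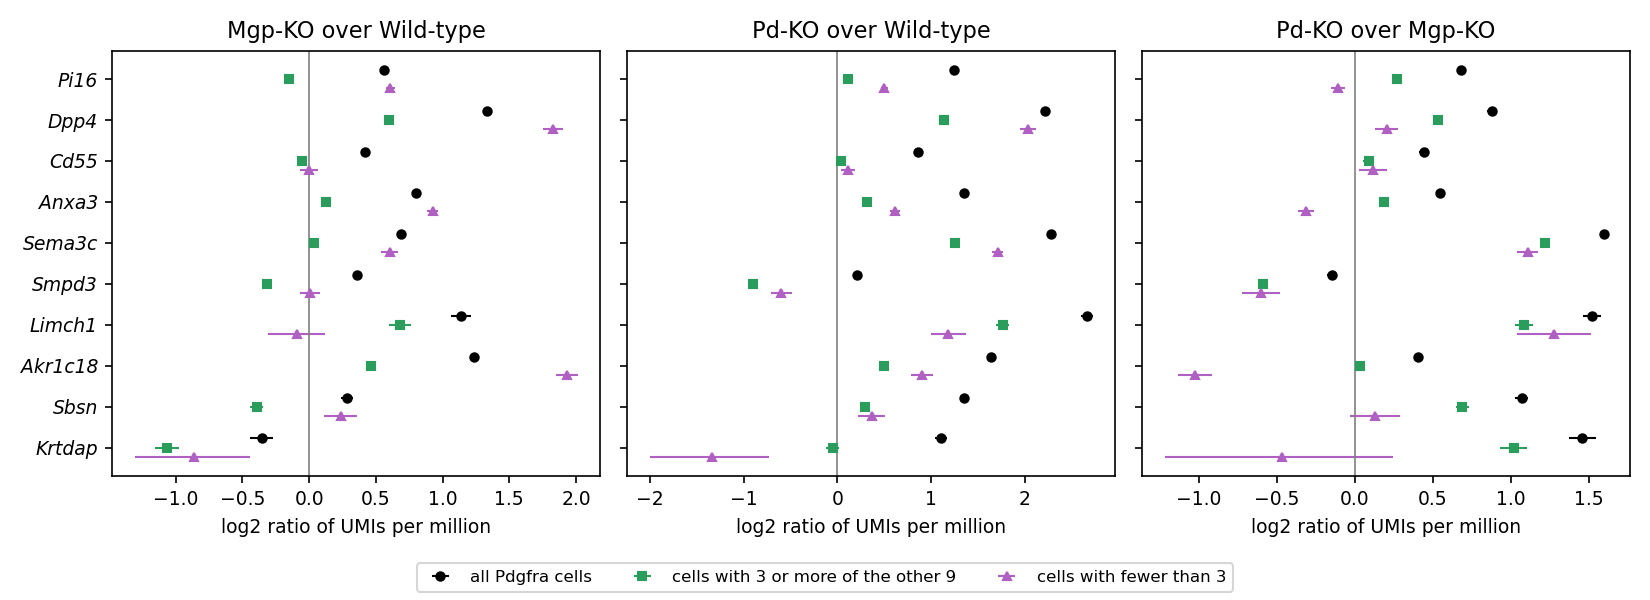
Log2 ratio of CPM (horizontal axis, with 95% counting intervals) for each member in all *Pdgfra* cells (black), in cells with at least 3 of the other 9 members (green) and in cells with fewer (purple), for the 3 comparisons of libraries. For *Pd*-KO over wild-type, the green points of *Pi16* and *Cd55* lie at 0.12 and 0.03 while their black points lie at 1.24 and 0.86, and the green point of *Smpd3* lies at -0.90.

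Outside *Pdgfra* cells, 5 members are given by cell type beside their level in free RNA, with types gated by 3 or more of 6 markers and no *Pdgfra* UMI. *Limch1* was above its *Pdgfra* cell level in Schwann cells, at 472 CPM in wild-type (110 cells), 701 in *Mgp*-KO (14 cells) and 529 in *Pd*-KO (45 cells), against 231, 29.1 and 116 CPM in free RNA. In endothelial cells it was at 82.0, 147 and 201 CPM, below free RNA in the wild-type library and above it in both knockouts. It was the only member above its *Pdgfra* cell level in endothelial cells of all 3 libraries. After thinning, a *Limch1* UMI was found in 60.9% of wild-type Schwann cells and 15.9% of endothelial cells, against 4.28% of *Pdgfra* cells and 3.13% of luminal epithelial cells. *Anxa3* had a UMI in 36.3%, 36.3% and 31.7% of thinned endothelial cells, at 241, 228 and 212 CPM, and in 11.6%, 10.2% and 9.09% of luminal epithelial cells. Free RNA held *Anxa3* at 113, 544 and 566 CPM, so that the endothelial level was above free RNA in the wild-type library and below it in both knockouts. Stromal *Dcn* had a UMI in 96.1%, 17.0% and 31.0% of endothelial cells before thinning. The part of stromal RNA in the endothelial levels of *Anxa3*, and of *Cd55* below, was not tested. These 3 endothelial levels of *Anxa3* were close to each other, whereas its *Pdgfra* cell level was 2.54-fold higher in the *Pd*-KO than the wild-type library.

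*Cd55* differed between libraries in endothelial cells, at 238 CPM in wild-type (225 to 253; 661 cells), 53.3 in *Mgp*-KO (38.7 to 71.5; 223 cells) and 52.7 in *Pd*-KO cells (44.6 to 61.8; 638 cells). The wild-type library thus stood apart, while the knockouts differed by log2 -0.016 (-0.51 to 0.50). Free RNA held *Cd55* at 66.1, 147 and 226 CPM, so the wild-type endothelial level was above free RNA and both knockout levels were below it. *Sema3c* was at 123, 178 and 162 CPM in basal epithelial cells (18, 91 and 12 cells) against 13.0, 8.34 and 9.67 in luminal epithelial cells, beside 74.0, 201 and 845 in free RNA, which was above the basal level in both knockouts. *Dpp4* was at 394 CPM in the 37 leukocyte-gated cells of the *Pd*-KO library (298 to 510), from 57 UMIs, an interval that covers the 335 CPM of free RNA, and had a UMI in 40.5% of them after thinning.

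The other 5 members, *Pi16*, *Akr1c18*, *Smpd3*, *Sbsn* and *Krtdap*, were below their *Pdgfra* cell level in endothelial, mural and luminal epithelial cells of each library, and so was *Dpp4*. A *Pi16* UMI was found in 16.6%, 4.48% and 6.74% of thinned endothelial cells, beside 35.9%, 46.2% and 57.6% of *Pdgfra* cells. The stromal gene *Col3a1* had a UMI in 100.0%, 46.2% and 88.6% of endothelial cells before thinning, so such low shares can include free RNA. No cell passed the gates of suprabasal keratinocytes or mesothelium in any library. Cells with neither *Pdgfra* nor a type numbered 727, 2393 and 1180 (6.92%, 19.0% and 13.4% of all cells). Of the 10 members, 0, 0 and 2 were higher in *Pdgfra* cells than in these cells. The share of all genes is not given beside these counts, so nothing is read from them. *Pi16* was at 1103, 1684 and 2268 CPM in cells with neither *Pdgfra* nor a type. The 2 members of the *Pd*-KO library that were higher in *Pdgfra* cells were *Dpp4* (469 CPM in cells with neither) and *Smpd3* (240.3 CPM). The median depth of these cells was 8603, 5103 and 5709 UMIs, below that of *Pdgfra* cells.

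**Figure D5:**
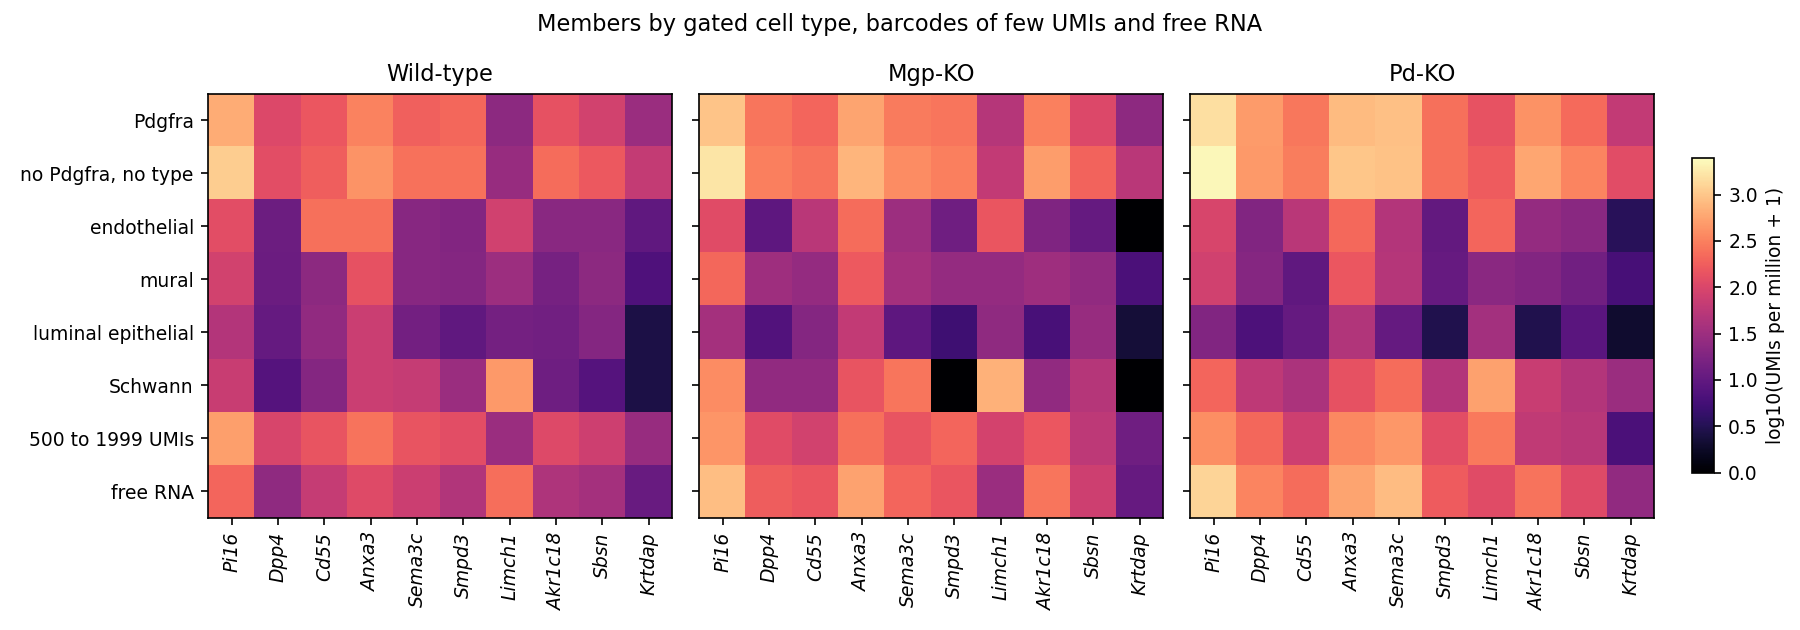
Members (columns) by gated cell type, barcodes of 500 to under 2000 UMIs and free RNA (rows), as log10(CPM + 1), in 1 panel per library. The top rows, *Pdgfra* cells and cells without *Pdgfra* or a type, are bright for most members, while *Limch1* is brightest in the Schwann row (472 CPM in wild-type) and *Cd55* in the endothelial row of the wild-type panel (238 CPM).

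Within *Pdgfra* cells, the members were lower where markers of other stromal states were found. All 10 were higher in *Pdgfra* cells that passed no further gate than in those gated as preadipocyte (*Icam1*, *Bmper*, *Cd36*, *Lpl*, *Pparg*, *Ggt5*), Areg (*F3*, *Gdf10*, *Fmo2*, *Vit*, *C2*, *Clec11a*) or *Col18a1* stroma (*Col18a1*, *Sdc1*, *Nxn*, *Fgf10*, *Cdh11*, *Frem1*), each by 3 of 6 markers, in each library. The gate lists were written with results of these libraries known, and most of their detected genes had a negative r with the summed members (below). The share of all genes is not given beside this count, so nothing is read from it. In wild-type cells, *Pi16* was at 2276 CPM with no further gate, 618 in the preadipocyte gate, 711 in the Areg gate and 643 in the *Col18a1* gate. In *Mgp*-KO cells these levels were 1952, 490, 484 and 295 CPM, and in *Pd*-KO cells 2490, 1012, 833 and 969 CPM. The preadipocyte gate of the *Pd*-KO library also held *Sema3c* at 726 CPM, against 190 and 196 in the wild-type and *Mgp*-KO gates. Cells of several gates made up 48.8%, 24.3% and 27.1% of *Pdgfra* cells, the deepest library having the most. Cells of no further gate made up 20.6%, 43.5% and 50.5%. The gates were set before thinning, at unlike depth, so a gate need not hold like cells in each library.

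*Sbsn* and *Krtdap*, whose promoters are shown above, overlapped unequally. For *Krtdap*, the highest r with any member was that with *Sbsn* in each library (0.35, 0.33 and 0.33). A *Sbsn* UMI was found in 57.7%, 68.8% and 69.7% of thinned cells with *Krtdap*, and *Sbsn* was 10.1-fold, 9.70-fold and 4.66-fold higher in them than in cells without. For *Sbsn*, r with *Pi16* was higher (0.40, 0.37 and 0.46) than with *Krtdap* in each library, and *Krtdap* was found in 19.2%, 14.2% and 20.2% of cells with *Sbsn*. Cells with *Krtdap* were almost always *Pi16* cells, with a *Pi16* UMI in 88.6%, 94.6% and 97.9% of the 272, 260 and 468 of them. *Akr1c18* was 7.05-fold higher in wild-type cells with *Krtdap*, against 3.02-fold and 2.89-fold in the knockouts, and *Dpp4* was 3.398-fold, 1.65-fold and 1.39-fold higher. Every other member likewise had its largest fold in wild-type and its smallest in *Pd*-KO cells. The level of *Akr1c18* in cells without *Krtdap* was 105, 282 and 343 CPM.

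*Dmkn*, a gene of secreted epidermal protein, lies between them at chr7:30763756-30781063, with 7.62 kb to *Sbsn* and 6.83 kb to *Krtdap*. It was at 9.93, 9.77 and 18.2 CPM in *Pdgfra* cells, highest in the *Pd*-KO library as were its neighbors. Its r with *Krtdap* was 0.26, 0.25 and 0.27 and with *Sbsn* 0.25, 0.21 and 0.22, against 0.17, 0.14 and 0.18 with *Pi16*, and rested on 107, 119 and 188 thinned cells with a UMI.

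Paralogs could share reads with 2 members. *Cd55b*, the paralog next to *Cd55* on chromosome 1, was at 0.0169, 0.568 and 1.14 CPM in *Pdgfra* cells. Of the other *Akr1c* genes, *Akr1c14* was the highest, at 28.2, 49.5 and 93.9 CPM, in the same order of libraries as *Akr1c18*. UMIs of *Akr1c14* were also found in endothelial cells, and the part of free RNA in them was not tested. It was at 54.6, 52.1 and 60.7 CPM in endothelial cells, where *Akr1c18* was at 20.7, 17.0 and 25.5 CPM, and its r with *Akr1c18* was 0.15, 0.22 and 0.25.

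The genes most like the summed members across thinned *Pdgfra* cells included several of the extracellular matrix. Among 4029 other genes with a UMI in at least 5% of thinned cells of each library, the 10 with the highest r were *Mfap5*, *Fbn1*, *Fn1*, *Igfbp6*, *Ly6c1*, *Ly6a*, *Col14a1*, *Fstl1*, *Pcolce2* and *Fndc1*. *Mfap5*, a microfibril protein, had r of 0.60, 0.60 and 0.61, and *Fbn1*, the main microfibril protein, 0.60, 0.58 and 0.69. *Fbn1* was at 1130.2, 1284 and 2787 CPM. The 10 with the lowest r were *Col4a1*, *Igfbp7*, *Apoe*, *Col15a1*, *Lpl*, *Fabp4*, *Col4a2*, *Junb*, *Jun* and *Egr1*. *Col4a1*, a chain of basement membrane collagen, had r of -0.52, -0.57 and -0.72, and *Fabp4*, a lipid carrier of adipocytes, -0.42, -0.49 and -0.45. *Jun*, an immediate early gene, had r of -0.34, -0.37 and -0.32 and was at 2406, 3258 and 1013 CPM.

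Of 25 further genes listed for interstitial progenitors, 21 reached 5% of cells, and 19 of these had r above 0.1 with the summed members in all 3 libraries, beside 4.82% of all genes; 0 had r below -0.1, beside 3.23%. Since the list was written with results of these libraries known, it is no independent support. It also repeats *Mfap5*, *Fbn1*, *Fn1*, *Igfbp6*, *Ly6c1*, *Ly6a* and *Pcolce2* of the 10 genes with the highest r above. The exceptions were *Tppp3* (0.06, 0.06 and 0.03) and *Has1* (0.01, 0.14 and 0.10). Of the 6 preadipocyte genes, the 5 that reached 5% had r below -0.1 in all libraries, as did 3 of 4 Areg genes and 4 of 4 *Col18a1* stroma genes, beside 3.23% of all genes. These lists too were written with results of these libraries known, and are no independent support. The preadipocyte gene *Lpl* was also among the 10 with the lowest r above. Of the 25, 18 were more than 1.5-fold above wild-type in *Pd*-KO cells and 1 was below, beside 33.3% and 14.8% of all genes. In *Mgp*-KO cells 13 were above and 1 was below, beside 28.7% and 9.92%. These counts against wild-type, and the shares of all genes beside them, were not corrected for gene span. Between *Pd*-KO and *Mgp*-KO cells 10 were higher and 2 lower, beside 11.4% and 10.7%. *Wnt2*, a secreted Wnt ligand, was at 50.1, 80.9 and 143 CPM. *Cd248* (endosialin) was at 487, 429 and 843 CPM, and *Has1*, a hyaluronan synthase, at 43.8, 297 and 46.1 CPM, highest in *Mgp*-KO cells.

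Cells were called female by an *Xist* UMI without a Y-linked UMI and male by the reverse. Of *Pdgfra* cells, 34.6%, 60.6% and 32.6% were female and 37.8%, 16.6% and 42.7% male. In wild-type cells, all 10 members were lower in female than in male cells, with log2 ratios between -0.94 for *Krtdap* and -0.50 for *Limch1*. In *Mgp*-KO cells all 10 were again lower in female cells, at a median of -0.43. In *Pd*-KO cells, 5 were lower and 4 higher in female cells by their counting intervals, with *Dpp4* at -0.44 and *Krtdap* at 0.36. The share of all genes that differed between the sexes is not given here, so nothing is read from these counts. The share of cells with at least 3 members was 20.0%, 39.6% and 51.8% in female cells and 33.8%, 55.2% and 67.6% in male cells, so that the order of the libraries was the same within each sex.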

How the data were processed

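Single-cell RNA sequencing counts of inguinal stromal vascular cells were analyzed in 3 libraries, 1 per genotype, grouped by the genotype in the labels. The matrices that the authors deposited hold raw counts of UMIs, a value for each gene in each barcode, without a filter on barcodes. Per the labels and methods, 10x Genomics 3′ libraries were counted with Cell Ranger 6.1.1; the methods name mm10, the submitters' processing notes GRCm39, and the count file headers Cell Ranger 4 (wild-type) and 7.1.0 (both knockouts). The headers do not state how reads of introns were handled. With 1 library per genotype, a batch cannot be told apart from the genotype.

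Barcodes of at least 2000 UMIs with at most 10% mitochondrial UMIs were kept, 10511 wild-type and 12575 and 8819 knockout cells (*Mgp*-KO, *Pd*-KO), of which 1 *Pdgfra* UMI defined *Pdgfra* cells. Levels are UMIs summed over cells and scaled to CPM, with exact Poisson intervals; shares have Clopper-Pearson and log2 ratios exact conditional binomial intervals (95%, counting error only). Ratios over all genes added 0.5 UMIs. Cells were thinned to 2000 UMIs without replacement (seed 11), and Pearson r used the log of 1 plus UMIs scaled to 10000. A test over replicates could not be made. Doublets were not called; an alternative left out *Pdgfra* cells with 3 or more of 6 markers of another type. Alternatives changed cell filters, gates, scaling, sex, thinning and gene span. Beyond the members, the named genes are those 10 highest and 10 lowest in r with the summed members, neighbors, paralogs and listed genes. The members and lists were chosen with earlier results of these data known. The functions were tested on simulated data. Positions came from GENCODE M21 and promoters from RefSeq (GRCm38.p6).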

Additional observations from a re-analysis of the deposited data

Results flagged for a closer look

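Differences between sexes pointed in opposite directions in different libraries for 4 members, which was not tested. *Pi16*, *Smpd3*, *Sbsn* and *Krtdap* were lower in female than in male *Pdgfra* cells of the wild-type and *Mgp*-KO libraries, by counting intervals below 0. In *Pd*-KO cells their log2 ratios of female over male cells were 0.077, 0.15, 0.0995 and 0.36, by intervals above 0. Each library pooled mice, so the number of mice behind either sex is not known from the counts. The share of all genes with such a change of direction is not given here.

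Endothelial cells moved against *Pdgfra* cells for 6 members in the comparisons with wild-type, which was not tested either. The share of all genes that did so is not given here, so nothing is read from this count. *Cd55* had log2 ratios of -2.16 for *Mgp*-KO and -2.18 for *Pd*-KO over wild-type endothelial cells, against 0.42 and 0.86 in *Pdgfra* cells. *Sbsn* was at -1.07 for *Mgp*-KO over wild-type endothelial cells (-2.32 to -0.03). For *Pd*-KO over wild-type endothelial cells, *Pi16* was at -0.34 (-0.55 to -0.13) and *Anxa3* at -0.19 (-0.33 to -0.04). *Smpd3* was at -0.93 (-1.61 to -0.29) and *Krtdap* at -1.86 (-3.26 to -0.69). In *Pdgfra* cells the ratio of *Smpd3* was 0.21, but -0.56 after the correction for gene span, which was not made in endothelial cells. Stromal *Dcn* had a UMI in 96.1% of wild-type endothelial cells, against 17.0% in the *Mgp*-KO and 31.0% in the *Pd*-KO library, and its part in these ratios was not tested.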

How the results depend on the processing

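No paired analysis was possible because each genotype had 1 library, and no library could be left out of a group. The counts of members past 1.5-fold stayed within 1.5 times of their values, except for *Mgp*-KO over wild-type, where 5 higher and 0 lower became 2 higher and 1 lower once the ratio expected from gene span was taken off, and 3 higher at 2-fold. The same span correction reversed *Sema3c* (-0.41) and *Limch1* (-0.82) in that comparison. It also took *Smpd3* to -0.25 there and to -0.56 in *Pd*-KO over wild-type cells, and *Smpd3* changed sign in female cells (*Pd*-KO over *Mgp*-KO, 0.12) and in male cells (*Pd*-KO over wild-type, -0.05). *Krtdap* was at 1.99 in female and 0.73 in male cells for *Pd*-KO over *Mgp*-KO, and at 1.91 and 0.61 for *Pd*-KO over wild-type. Of 300 log2 ratios of members over the alternatives, 294 kept their sign, but 114 stayed within the counting interval of their main value. A further 184 moved outside that interval, and 2 were reversed (*Sema3c* and *Limch1*, above). The counting intervals thus do not cover the changes made by the choice of cells, scaling or span correction. The shares of cells with at least 3 members, as wild-type, *Mgp*-KO and *Pd*-KO, were 34.9%, 55.2% and 66.4% when cells were thinned to 4000 UMIs, which left out 239, 1104 and 414 shallower cells, and 59.6%, 59.3% and 70.3% without thinning. They were 36.7%, 54.6% and 66.2% for 2 or more members and 16.1%, 25.7% and 45.2% for 5 or more. No alternative corrected these shares for gene span. Female cells gave 20.0%, 39.6% and 51.8% and male cells 33.8%, 55.2% and 67.6%. With 2 *Pdgfra* UMIs the *Mgp*-KO and *Pd*-KO shares were 43.7% and 58.8%, and without cells with markers of another type the wild-type share was 30.0%. All 45 pairs stayed positive under Spearman's rho, without thinning, with 2 *Pdgfra* UMIs and without cells with markers of another type. Counts of members higher in *Pdgfra* cells than in endothelial, mural or luminal cells did not change with 4 of 6 markers in the gate.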
